A study of Mus musculus with 75 samples.

Results

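The 44 genes described here act in G2 and mitosis: cyclins and their kinase, mitotic kinases, the spindle checkpoint, kinetochores, spindle motors, the cytokinesis machinery and chromosome packing. They were chosen by gene symbol from a list of names, and each symbol was found among the 55536 genes of the deposited count table. Their RNA was measured by bulk RNA sequencing in the livers of male C57Bl/6 mice whose dams drank either vehicle or tributyltin (TBT), an organotin compound, until weaning. The labels give the TBT exposure as 0.5 mg per kg body weight per day, or 3.07 µM in the drinking water. No mouse carried a transgene or a deletion per the labels, and litter membership is not given, so p-values measure the spread between mice without regard to litter.

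At 3 weeks there were 8 vehicle libraries from 7 mice and 8 TBT libraries. At 5 months there were 8 vehicle mice, 16 TBT mice labelled low risk and 10 TBT mice labelled high risk. At 10 months there were 6 vehicle mice, 5 low-risk TBT livers, 6 libraries of uninvolved liver from high-risk TBT mice, 7 tumors from TBT mice and 1 vehicle library labelled as a tumor, which entered no comparison. What the 5-month risk labels rest on, expression values included, is not given in the sources used here.

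A cell that leaves G2 activates the cyclin B and Cdk1 kinase, condenses its chromosomes, attaches them to a spindle through kinetochores and waits for the spindle checkpoint before the anaphase-promoting complex starts chromosome separation. Cytokinesis then divides the cell at the spindle midzone. Most genes of this programme are transcribed in G2 and mitosis and are silent in resting cells: the DREAM repressor complex and, in cycling cells, Myb-MuvB and FOXM1 act through a short promoter element called the cell cycle genes homology region, often beside boxes bound by the factor NF-Y. Adult hepatocytes are mostly quiescent, while the liver of a young mouse still grows and the adult liver divides again after tissue loss or injury.

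The promoters are shown first because many of the genes share short letters there, a property that does not come from their expression. RefSeq promoter windows (build GRCm38.p6, 250 bases before to 50 after the transcript start) were found for 35 of the 44 genes; Foxm1, Ccna2, Cdc25c, Aurkb, Pbk, Spc24, Tpx2, Kif20a and Smc4 were not matched. The letters searched on both strands, with overlapping matches each counted, were, for the NF-Y box, CCAAT. For the homology region they were TTTGAA, with the variant TTCGAA counted alongside. A typical E2F site was read as TTTGGCGC, with the form TTCCCGCC counted alongside. The upstream 250 bases of 6 genes that hold both of the first kinds of letters are printed 5′ to 3′ on the strand of the gene, and capitals mark NF-Y boxes and homology regions, or their reverse complements. They are the first 6 such genes in the set order of the genes described by sample. Mki67 and Top2a are much used markers of dividing cells, Smc2 and Ncapg condensin subunits, Cdk1 the mitotic kinase and Bub1b a checkpoint kinase.
Mki67, chr7:135716380-135716629, minus strand: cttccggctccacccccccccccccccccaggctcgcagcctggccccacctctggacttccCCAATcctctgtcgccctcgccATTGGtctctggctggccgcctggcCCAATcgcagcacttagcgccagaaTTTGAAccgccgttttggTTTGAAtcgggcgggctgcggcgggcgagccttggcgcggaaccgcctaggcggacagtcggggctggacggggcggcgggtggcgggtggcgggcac
Top2a, chr11:99024190-99024439, minus strand: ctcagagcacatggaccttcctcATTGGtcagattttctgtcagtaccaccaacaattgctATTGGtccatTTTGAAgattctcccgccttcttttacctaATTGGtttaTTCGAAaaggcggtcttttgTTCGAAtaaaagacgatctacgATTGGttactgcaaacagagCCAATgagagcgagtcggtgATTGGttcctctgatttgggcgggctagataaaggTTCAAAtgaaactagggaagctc
Smc2, chr4:52438971-52439220, plus strand: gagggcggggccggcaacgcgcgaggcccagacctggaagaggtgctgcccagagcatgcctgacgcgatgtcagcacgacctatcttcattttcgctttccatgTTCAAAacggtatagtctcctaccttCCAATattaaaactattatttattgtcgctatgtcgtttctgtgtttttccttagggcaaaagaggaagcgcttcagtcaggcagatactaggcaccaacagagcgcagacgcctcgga
Ncapg, chr5:45669675-45669924, plus strand: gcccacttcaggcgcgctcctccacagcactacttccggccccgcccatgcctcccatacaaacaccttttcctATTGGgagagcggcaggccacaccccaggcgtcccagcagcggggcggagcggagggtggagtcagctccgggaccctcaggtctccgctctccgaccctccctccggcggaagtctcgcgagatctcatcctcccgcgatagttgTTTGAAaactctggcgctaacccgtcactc
Cdk1, chr10:69352913-69353162, minus strand: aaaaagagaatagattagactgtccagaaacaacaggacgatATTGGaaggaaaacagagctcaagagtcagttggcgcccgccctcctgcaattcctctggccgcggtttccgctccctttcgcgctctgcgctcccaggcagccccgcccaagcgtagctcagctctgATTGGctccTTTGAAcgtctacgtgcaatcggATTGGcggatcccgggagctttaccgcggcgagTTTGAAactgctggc
Bub1b, chr2:118597961-118598210, plus strand: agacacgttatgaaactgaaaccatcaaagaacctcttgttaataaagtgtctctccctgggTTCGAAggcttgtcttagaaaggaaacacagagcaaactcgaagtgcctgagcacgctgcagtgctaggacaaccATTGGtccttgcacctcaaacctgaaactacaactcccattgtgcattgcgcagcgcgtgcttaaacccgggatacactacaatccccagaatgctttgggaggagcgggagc
The Top2a stretch holds the most marked letters of the 6. By GENCODE M21, all 6 stretches lie upstream of their gene apart from the last 26 bases of the Cdk1 stretch and the last 6 of the Ncapg stretch, which fall into the gene's own first exon. The Ncapg stretch also shares 34 bases with an exon of the non-coding gene 1600023N17Rik.

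Over the 37 windows of the 35 genes (Ect2 and Prc1 have 2 overlapping windows each), the NF-Y box was found in 70.3%, against 38.2% of the 21263 windows of all protein-coding genes. The homology region letters were found in 78.4% against 17.6%, and both kinds of letters in 64.9% against 7.11%. The E2F letters were found in 2.7% of the windows of the mitosis genes and in 3.44% of all windows. Counted by gene, 22 of 35 held both, and Birc5, Melk, Ncaph, Nuf2, Nusap1 and Plk4 held neither. Of the 51 matches to the NF-Y box, 34 lay within 100 bases upstream of the start, with a median position of -68. The 43 matches to the homology region had a median position of -14 and fell on both sides of the start, 23 before and 20 after it. Ccnf, whose RNA did not follow that of the other genes, also holds both kinds of letters.

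**Figure D1:**
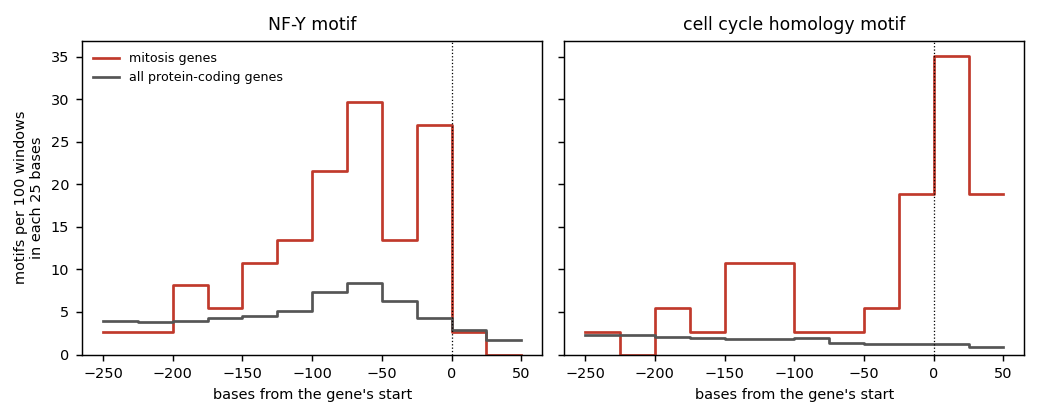
Positions of the matches to the NF-Y box (left) and to the homology region (right) in the promoter windows of the mitosis genes and of all protein-coding genes, as matches per 100 windows in bins of 25 bases against distance from the RefSeq start in bases (dotted line: the start). The mitosis genes (red) lie above all protein-coding genes (grey) just upstream of the start for the NF-Y box, where 34 of 51 matches are within 100 bases, and around it for the homology region.

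The 75 libraries held 2.832 to 45.45 M counts (M: 1000000), and 6 stood apart by low totals, many detected genes or a high mitochondrial share. The libraries of uninvolved livers 3 and 6 were closer to each other than any other pair within a group (SD of the log2 ratios over genes 0.111, against at least 0.232 for 308 other pairs) and were counted as 1 sample, called uninvolved 3+6. Both libraries of 3-week vehicle mouse 3 were summed as well, which left 73 samples. The library labelled TBT 4 at 3 weeks had 348 CPM (counts of the gene per 1000000 counts of the library) of Xist and 7.08 CPM over 4 Y-linked genes, against its male label. Results that rest on these libraries were computed with and without them. Reads of a gene and of a gene on the opposite strand may not be separated, since the strand setting of the counting is not given: the share of exon bases that overlap another gene was 29.3% for Kif20a (Cdc23), 15.1% for Kif4 (Pdzd11), 13.4% for Ncapg (Lcorl), 12.7% for Cdc25c (Gm3550), 12.5% for Ccna2 (Exosc9), 11.1% for Prc1 (Rccd1) and 7.09% for Plk1 (Gm44985), and smaller for Nusap1, Cdc20, Foxm1, Top2a and Ccnf.

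To compare samples, a mitosis level was computed as the mean over the 44 genes of log2(CPM + 0.1). From here on, CPM use a library size scaled by edgeR's TMM factors over all samples, except in limits for a count of 0. In the 3-week vehicles the level ran from 3.09 to 3.81 with a median of 3.50, and in the 3-week TBT mice from 1.93 (TBT 6) to 4.60 (TBT 4) with a median of 3.28. The 5-month vehicles lay between -0.45 and 2.81 with a median of 0.19, the low-risk mice between -1.28 and 1.33 with a median of 0.55, and the high-risk mice between 0.94 and 3.71 with a median of 3.1. All 3-week vehicles were thus above every 5-month vehicle and every low-risk mouse, and 9 of 10 high-risk mice were above every low-risk mouse; the exception was high-risk 1. Vehicle 4 stood above the other 5-month vehicles at 2.81, followed by vehicle 6 at 1.35 and vehicle 9 at 1.19. Vehicle 9 is among the libraries that stood apart. It held 2.832 M counts, and a count of 0 in it allows up to 1.06 CPM.

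At 10 months the vehicles had mitosis levels of -0.58 to 0.58 with a median of -0.22. The low-risk livers were at -0.52, -0.26, -0.19, 0.16 and 0.22, within the range of the vehicles. The uninvolved livers were at 0.21 (liver 7), 0.81 (5), 0.94 (12), 1.89 (1) and 2.82 (3+6), so 4 of 5 lay above every vehicle and every low-risk liver. Tumors ran from 0.05 (tumor 7) to 3.22 (tumor 1) with a median of 2.96, and 6 of 7 lay above every vehicle. The vehicle library labelled as a tumor had a level of 2.55, inside the range of the TBT tumors, and 42 of the 44 genes were higher in it than in all 6 vehicles, the exceptions being Ccnf and Spc24. In bulk tissue, fewer dividing cells and less mitotic RNA per cell cannot be told apart.

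**Figure D2:**
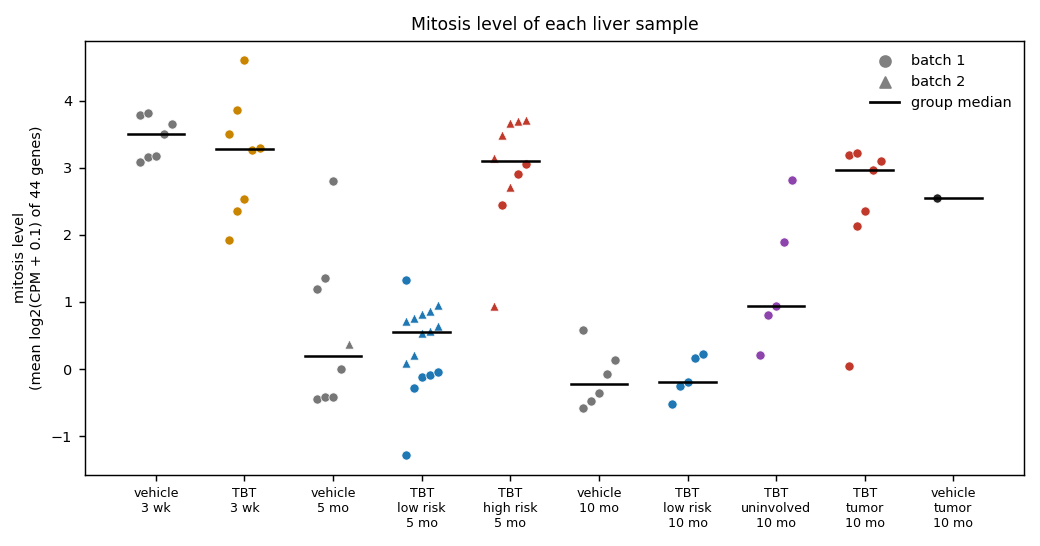
Mitosis level of each sample, the mean over 44 genes of log2(CPM + 0.1), by group; each point is a sample (circles: batch 1, triangles: batch 2) and the bar is the group median. The 3-week groups and the high-risk group have medians above 3, the 5-month and 10-month vehicles and low-risk mice lie mostly near 0, and uninvolved livers and tumors spread between 0.05 and 3.22.

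The genes varied largely as a block across samples. The correlation of a gene's log2(CPM + 0.1) with the mean of the other mitosis genes over the 73 samples, in which the genes of a sample share its library size and batch, had a median of 0.95, and 39 of 44 genes were above 0.9. Within single groups the median was 0.94 over the 10 high-risk mice, 0.98 over the 7 tumors, 0.90 over the 8 vehicles of 5 months and 0.67 over the 16 low-risk mice. The 5 genes at or under 0.9 were Ccnf at -0.07, Spc24 at 0.36, Spc25 at 0.82, and the condensin ATPases Smc2 and Smc4 at 0.85 each. Ccnf encodes cyclin F, which serves an SCF ubiquitin ligase and binds no CDK; Spc24 and Spc25 are partners in the NDC80 complex of the outer kinetochore. Per kilobase of exon, the level in low-risk mice of 5 months was highest for Spc24 (3.49 CPM per kb) and Smc4 (3.40) and lowest for Cdc25c (0.0265), whereas in high-risk mice it was highest for Mki67 (7.62), Cdc20 (7.61) and Smc4 (7.27).

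**Figure D3:**
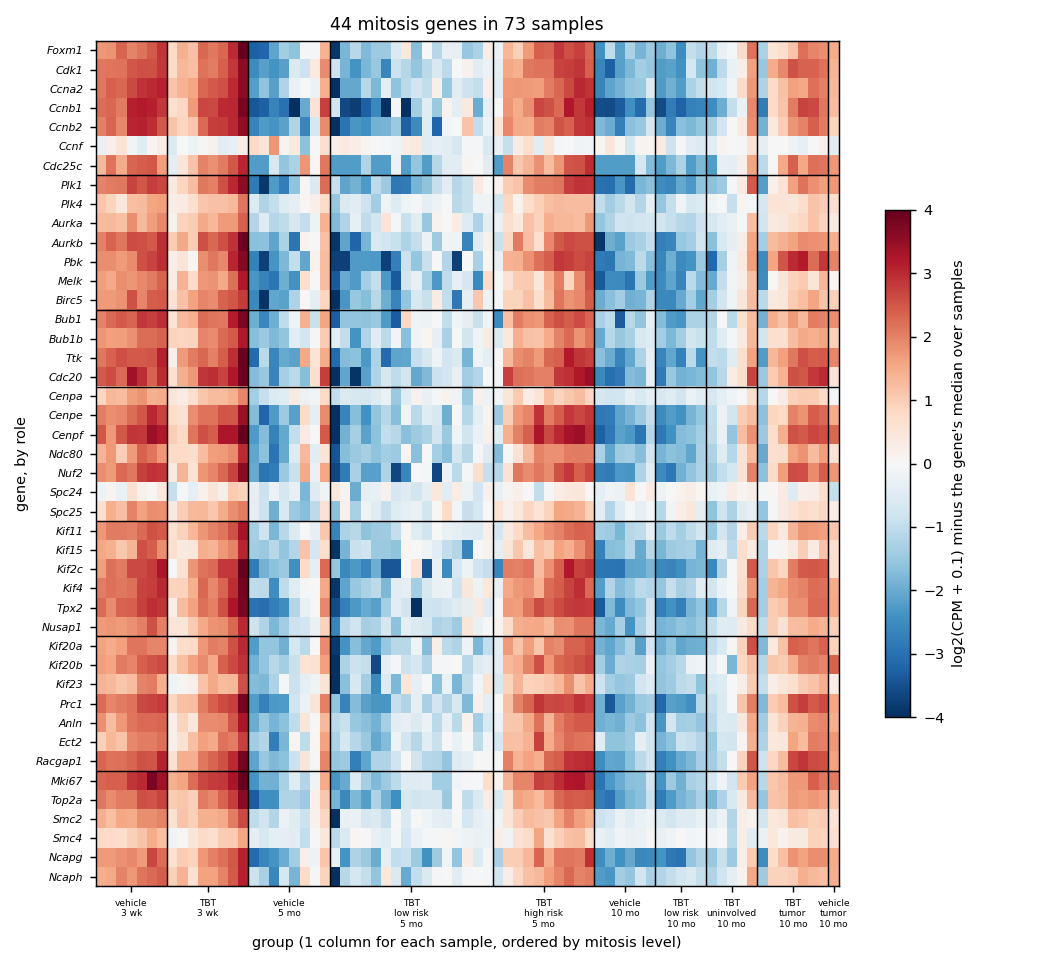
Heat map of the 44 mitosis genes (rows, ordered by role) in 73 samples (columns, by group and, within a group, by mitosis level), coloured by log2(CPM + 0.1) minus the median of the gene over all samples, on a scale that ends at -4 and 4. Most rows change colour together at 3 weeks, in high-risk mice, in tumors and in single samples such as 5-month vehicle 4 and uninvolved 3+6, while the rows of Ccnf, Spc24 and Smc4 stay paler.

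From 3 weeks to 5 months of age, vehicle livers lost mitotic RNA. Called lower were 42 of the 44 genes, and none was called higher, in edgeR's quasi-likelihood test with Benjamini-Hochberg adjustment over all genes (a call is an adjusted p under 0.05; 7 mice each, vehicles of sequencing batch 1 only). Of all 14962 genes tested, 12.3% were called lower. The median log2 fold change was -2.38 over the 44 genes and 0.02 over all genes, and 25 of the 44 genes did not overlap between the ages, as 4.73% of all genes fell without overlap. Not called were Ccnf (log2 fold change 0.53, adjusted p 0.135) and Cdc25c, the phosphatase that activates Cdk1 (-1.69, adjusted p 0.139).

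Mki67, which encodes the Ki-67 protein that coats mitotic chromosomes, had 66.4 to 181 CPM with a median of 94.9 in 3-week vehicles and 2.49 to 36.7 CPM with a median of 5.55 in all 8 vehicles of 5 months. These ranges did not overlap, and the fall was the largest of the 44 genes (log2 fold change -3.31 ± 0.54, SE, adjusted p 0.000146 by edgeR). Ccnb1, the cyclin B1 that activates Cdk1, went from 9.08 to 19.5 CPM (median 15.1) at 3 weeks to 0 to 14.3 CPM (median 0.206) at 5 months (-2.36 ± 0.76, adjusted p 0.0296). Its ranges overlapped because of vehicle 4, which alone reached 14.3 CPM. Smc4, the condensin ATPase, was at 33.9 to 58.5 CPM (median 40.6) and then at 10.5 to 28.6 CPM (median 16), a smaller fall without overlap (-1.23 ± 0.16, adjusted p 4.35e-06). All 7 kinases with survivin, all 4 checkpoint genes, all 7 kinetochore genes, all 6 spindle genes, all 7 midzone genes and all 6 chromosome genes were among those called lower, and 5 of the 7 cyclin and CDK genes.

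Related genes outside the 44 fell too. Called lower from 3 weeks to 5 months were 24 of 32 other kinetochore and checkpoint genes (Oip5 at -2.75, Kntc1 at -2.71), 17 of 22 other spindle and cytokinesis genes (Shcbp1 at -3.06), 6 of 15 cohesin genes (Cdca5 at -2.86), 5 of 18 genes of the anaphase-promoting complex (Ube2c at -2.56), 3 of 4 other condensin genes (Ncapg2 at -2.22), 6 of 8 CDK inhibitors and inhibitory kinases (Cdkn3 at -2.52) and 5 of 9 genes of G1 (Ccne2 at -2.0), and none of these lists had a gene called higher. Of 19 DREAM, E2F and Rb genes 4 were lower, led by E2f2 (-1.54), and Lin37, E2f6 and Rbl2 were higher (0.34, 0.51 and 0.21). Markers of other cells moved as well: 7 of 9 erythroid markers tested were called lower and 1 higher, with a summed level of 456 to 1800 CPM at 3 weeks and 66.7 to 778 CPM at 5 months and Gata1 at a median of 0 counts at 5 months. The 66.7 CPM are those of vehicle 9, the library of 2.832 M counts. All 8 endothelial, 5 of 8 stellate and 5 of 8 macrophage markers were called lower too. The part of these cells in the fall of the mitosis genes was not tested.

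Between 5 and 10 months the vehicles differed less. Called lower were 10 genes, namely Cdk1, Ccnb1, Cdc25c, Plk1, Melk, Cdc20, Cenpf, Kif2c, Prc1 and Ncapg, where 7.41% of all genes were called lower. Spc24 alone was called higher (0.56 ± 0.17, adjusted p 0.0337), where 6.68% of all genes were. The median over the 44 genes was -1.46 (-0.63 without vehicle 4), against -0.04 over all genes, and Cdc25c had the lowest value (-3.69 ± 1.09, adjusted p 0.0292 by edgeR). Plk1, the polo-like kinase that drives mitotic entry and exit, had 0 to 6.71 CPM (median 0.29) at 5 months and 0.0727 to 0.359 CPM (median 0.139) at 10 months. The 6.71 CPM are those of vehicle 4, which stood far above the other vehicles, and without it the count called lower by edgeR was 0.

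At 3 weeks, when the exposure had just ended, maternal TBT gave no call. None of the 44 genes passed edgeR's test, none had an unadjusted p under 0.05, and DESeq2 called none. Over all 14050 genes tested 0% were called, and 474 had an unadjusted p under 0.05. The log2 fold changes (TBT against vehicle) ran from -0.27 for Cenpa, the centromere histone, to 0.30 ± 0.42 for Foxm1, with a median of -0.07 beside 0.01 for all genes; without the library labelled TBT 4 the median was -0.40. Foxm1, the transcription factor of G2 and mitosis genes, had 4.83 to 10.5 CPM (median 6.55) in vehicles and 2.46 to 24.4 CPM (median 6.66) in TBT mice. Top2a, the topoisomerase that untangles chromosomes, had 38.7 to 67.5 CPM (median 44.4) in vehicles and 20 to 128 CPM (median 41.5) in TBT mice. The TBT group was wider on both sides for both genes, and its top values of 24.4 and 128 CPM belong to the library labelled TBT 4; without that library, 0 genes were called as well.

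At 5 months, mice labelled high risk had more mitotic RNA than those labelled low risk. Called higher were 42 of the 44 genes and none lower, in edgeR's test with sequencing batch as a covariate, where 20.3% of the 14773 genes tested were called higher. The median log2 fold change was 2.88, beside -0.01 over all genes. Every gene of the kinase, checkpoint, spindle, midzone and chromosome groups was called, 6 of 7 cyclin and CDK genes and 6 of 7 kinetochore genes. The exceptions were Ccnf (0.08 ± 0.18, adjusted p 0.775) and Spc24 (0.27 ± 0.18, adjusted p 0.244). Only Ttk, the checkpoint kinase MPS1, had no overlap between the groups, where 1.16% of all genes were higher without overlap, with 0 to 0.673 CPM in low-risk and 0.764 to 7.7 CPM in high-risk mice. High-risk 1 was the lowest high-risk mouse in 40 of the 44 genes.

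Among cyclins and their regulators, Foxm1 had 0 to 1.89 CPM (median 0.539) in low-risk and 1.15 to 10.3 CPM (median 7.29) in high-risk mice (log2 fold change 3.06 ± 0.46, adjusted p 3.64e-06 by edgeR). Cdk1, the kinase that drives entry into mitosis, had 0.435 to 3.55 CPM (median 1.46) and 2.45 to 23.7 CPM (median 14.6) in the same order. Ccnb1, its partner, had 0 to 2.73 CPM (median 0.695) and 2.06 to 19.8 CPM (median 11.4). For all of them the high-risk range began inside the low-risk range, and only high-risk 1 lay in it. Ccna2, the cyclin A of S phase and G2, was higher by 3.14 ± 0.40 on the log2 scale. Ccnf, by contrast, had 11 to 23.4 CPM (median 17.1) in low-risk and 9.22 to 27.7 CPM (median 16.7) in high-risk mice, which covers the same range.

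Of the kinases, Plk1 had 0.0991 to 1.77 CPM (median 0.5) in low-risk and 1.53 to 10.7 CPM (median 5.92) in high-risk mice (3.41 ± 0.55, adjusted p 9.66e-06 by edgeR). Aurkb and its partner Birc5 (survivin), of the chromosomal passenger complex that corrects kinetochore attachments, were higher by 2.90 ± 0.45 and 2.39 ± 0.47 on the log2 scale. Smaller were the changes of Aurka, the kinase of spindle poles (1.58 ± 0.27), and of Plk4, which starts centriole duplication (1.44 ± 0.23). Of the checkpoint, Cdc20, the activator of the anaphase-promoting complex, had the largest change of the 44 genes (3.91 ± 0.52, adjusted p 7.13e-07), from 0 to 2.31 CPM (median 0.955) in low-risk to 2.14 to 26 CPM (median 13.4) in high-risk mice. Only high-risk 1 overlapped the low-risk range. Bub1b, the checkpoint kinase BUBR1, went from 0.409 to 3.27 CPM (median 1.84) to 1.68 to 12.8 CPM (median 7.27).

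At the kinetochore, Cenpe, a motor that carries chromosomes to the spindle equator, had 0 to 2.71 CPM (median 1.09) in low-risk and 0.841 to 19.2 CPM (median 12.2) in high-risk mice. Ndc80, which binds microtubules, had 0 to 1.05 CPM (median 0.329) and 0.229 to 4.47 CPM (median 3.76). Its complex partner Spc25 had 2 to 11.4 CPM (median 4.85) and 7.36 to 19.7 CPM (median 12.1), a smaller difference (1.30 ± 0.23, adjusted p 3e-05), and Spc24 was not called. So the subunits of this complex did not differ by the same amount: Ndc80 and Nuf2 were at 2.75 ± 0.48 and 3.29 ± 0.57, Spc25 and Spc24 at 1.30 and 0.27.

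The spindle motor Kif11 (Eg5), which pushes the spindle poles apart, had 0.532 to 4.52 CPM (median 2.43) in low-risk and 2.37 to 20.8 CPM (median 13) in high-risk mice. Tpx2, which activates Aurora A on the spindle, had 0 to 3.54 CPM (median 1.49) and 2.75 to 19.7 CPM (median 15.5). In the midzone, Prc1, which bundles antiparallel microtubules, had 0.316 to 2.88 CPM (median 1.02) and 2.52 to 19.8 CPM (median 16.3). For these genes again only high-risk 1 lay within the low-risk range. Anln (anillin) and Racgap1, which organise the contractile ring, were higher by 2.71 ± 0.35 and 3.2 ± 0.41.

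Of the chromosome genes, Mki67 had 2.53 to 21.3 CPM (median 7.62) in low-risk and 14.3 to 124 CPM (median 84.8) in high-risk mice (3.22 ± 0.39, adjusted p 2.61e-07 by edgeR). Top2a had 1.66 to 12.7 CPM (median 4.69) and 6.57 to 58 CPM (median 33). Smc4 had 10.1 to 22.1 CPM (median 18) and 19 to 62.5 CPM (median 35.7), and its difference was the smallest of the called genes (1.13 ± 0.15, adjusted p 4.27e-07). The condensin I subunit Ncapg, with 0.229 to 2.05 CPM (median 0.718) against 0.612 to 13.2 CPM (median 6.09), differed far more (2.86 ± 0.46). The lowest values of many genes in the low-risk group belong to low-risk 5, a library of 7.719 M counts in which 21 of the 44 genes had 0 counts, which allows up to 0.389 CPM (3 counts).

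**Figure D4:**
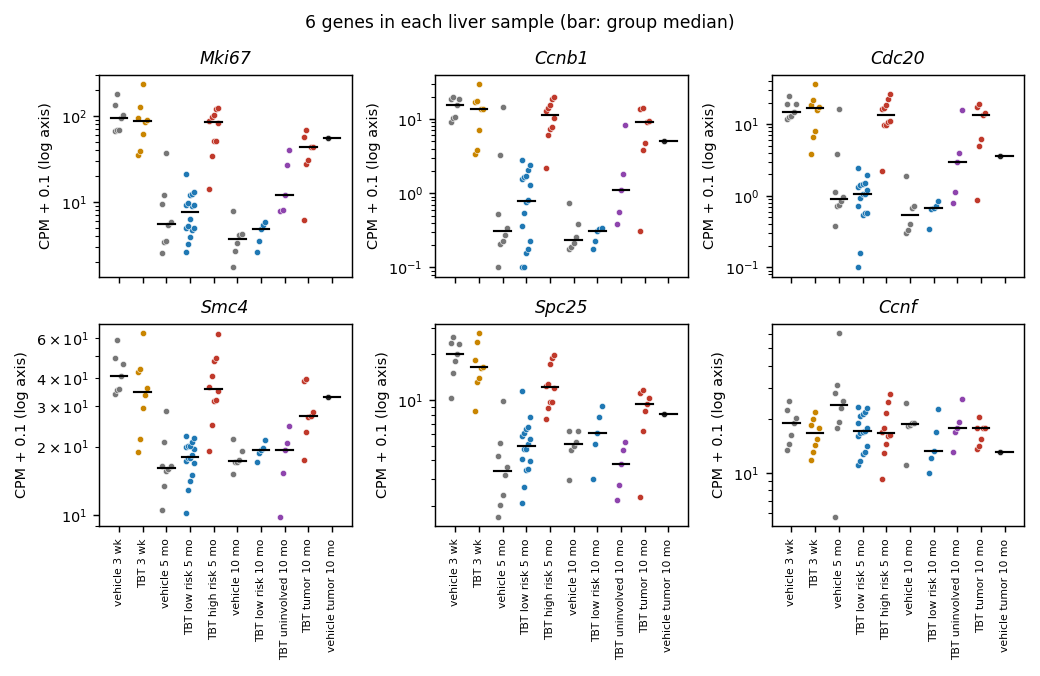
CPM + 0.1 of 6 mitosis genes in each sample by group, on log axes that differ between panels; each point is a sample and the bar is the group median. Mki67 has medians of 7.62 CPM in low-risk and 84.8 CPM in high-risk mice, while those of Ccnf are 17.1 and 16.7 CPM.

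The difference between risk labels was present in both sequencing batches. The deposited counts had been adjusted between batches with ComBat-seq, per the file name. The groups used there are not given, so the batches may not be independent of each other. Within batch 1 (3 high-risk against 6 low-risk mice) 21 of the genes were called higher, with a median of 3.00. Within batch 2 (7 against 10) it was 41 of 43 tested, with a median of 2.87. Over all genes, 508 were called higher in batch 1 only and 2521 in batch 2 only, beside 3005 over both batches. The mitosis level ran from 2.45 to 3.05 in high-risk and from -1.28 to 1.33 in low-risk mice of batch 1, and from 0.94 to 3.71 and from 0.09 to 0.95 in batch 2. Only high-risk 1, at 0.94, reached into the low-risk range of its batch.

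Genes that work beside the 44 were also higher in high-risk mice, but not those of every complex. Of all 14773 genes tested, 3005 (20.3%) were called higher and 2740 lower. The genes of the anaphase-promoting complex were called no more often than all genes in either direction. All 22 of the other spindle and cytokinesis genes were called higher, from Ckap5 at 0.41 to Hmmr at 3.78 and Ckap2 at 3.86, as were 18 of 30 other kinetochore and checkpoint genes, led by Knl1 (3.12) and Cenpi (2.81), with Hjurp (-0.47) and Mis12 (-0.34) called lower. Of 15 cohesin and separase genes 6 were higher, among them the shugoshin Sgo2a (3.61) and the acetyltransferase Esco2 (2.98), and securin, Pttg1, was lower (-0.38). Of 18 genes of the anaphase-promoting complex and its regulators only 3 were higher, led by its ubiquitin-conjugating enzyme Ube2c (3.26 ± 0.43), and the subunits Cdc26 and Anapc13 were lower (-0.38 each). Of 4 other condensin genes, Ncapg2 (2.28) and Ncapd2 (1.4) were higher.

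Among the regulators, the DREAM, E2F and Rb genes were called no more often than all genes in either direction. Of 19 DREAM, E2F and Rb genes only Rbl1, which encodes p107, was higher (1.33), and E2f8 (-1.52), Rbbp4 (-0.68) and Rbl2 (-0.20) were lower. In G1, cyclin D1 (Ccnd1, 1.82), Ccnd2 (0.75) and Cdk6 (0.40) were higher of 9 genes. Of 9 CDK inhibitors and related genes 4 were higher and none lower: Cdkn3 (3.21), the p21 gene Cdkn1a (2.47), Pkmyt1 (2.01) and Cdkn2c (1.37).

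Marker genes of other liver cells moved with the risk labels. Of 8 stellate cell markers 6 were called higher and 1 lower, with summed levels of 306 to 651 CPM in low-risk and 539 to 1370 CPM in high-risk mice. Of 7 cholangiocyte markers 4 were higher (35.9 to 243 CPM and 43 to 354 CPM), and of 6 T and NK cell markers 4 were higher and 1 lower. Other lists fell or split: of 8 endothelial markers 1 was higher and 4 lower, and of 8 macrophage markers 3 were higher and 2 lower. Of 8 hepatocyte markers 1 was higher and 4 lower, with summed levels of 89800 to 176000 CPM and 60900 to 169000 CPM, so hepatocyte markers were abundant in both groups. Their part in the difference of the mitosis genes was not tested.

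Against the 5-month vehicles, high-risk mice had 30 of the 44 genes called higher and none lower, where 8.47% of all genes were called higher. The median was 1.88 beside -0.01 for all genes, and no gene was without overlap. Mki67 had the largest difference (2.77 ± 0.54, adjusted p 0.00107 by edgeR) and Ccnf the lowest value (-0.48, not called). All 7 midzone and cytokinesis genes were called, and 3 of 7 kinetochore genes. Vehicle 4, with 14.3 CPM of Ccnb1 and 16.2 CPM of Cdc20 against vehicle medians of 0.206 and 0.797 CPM, lay inside the high-risk range of both. Only 1 vehicle was sequenced in batch 2. Within batch 1 (3 against 7 mice) the median was 1.58 and 0 of the 44 genes were called. Over all genes, 0 were called higher and 0 lower there as well. With single mice left out, the calls over both batches ranged from 18 to 39. Of the markers, 6 of 8 stellate were higher (83.9 to 703 CPM in vehicles, 539 to 1370 CPM in high-risk mice). Higher were also 3 of 7 cholangiocyte markers (38.1 to 282 CPM and 43 to 354 CPM), and 5 of 8 hepatocyte markers were lower. Of 8 endothelial markers 2 were lower, and of 8 macrophage markers 1 was higher and 2 lower. The 83.9 and 38.1 CPM are those of vehicle 9, the library of 2.832 M counts. The part of these cells was not tested.

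Low-risk mice did not pass the test against vehicles. By edgeR 0 of the 44 genes were called, 12 had an unadjusted p under 0.05, all of them negative, and DESeq2 called 0; of all 14773 genes, 0% were called and 934 had an unadjusted p under 0.05. The median was -0.86 beside 0.01 for all genes, and values ran from -2.22 for Cdc25c to 0.25 for Spc24. Without vehicle 4 the median was -0.21. The median mitosis level went the other way, with 0.55 in low-risk mice and 0.19 in vehicles. Within batch 1 these medians were -0.1 and 0, and only 1 vehicle was in batch 2. The mitosis level of all 16 low-risk mice was under that of vehicle 4 and of vehicle 6, and 1 low-risk mouse was under all vehicles.

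At 10 months, uninvolved liver of high-risk mice had more mitotic RNA than low-risk liver. Of 42 genes tested (Cdc25c and Kif2c were too low), 33 were called higher, where 27.7% of the 16338 genes were, and 1 lower, where 24.7% were. The median was 2.06 beside 0.05 over all genes, and 15 genes did not overlap between the groups, among them Ccna2, Ccnb1, Birc5, Cenpe, Ndc80, Prc1 and Mki67; of all genes, 15.8% were higher without overlap. Each group had 5 samples. The uninvolved libraries were deeper than the low-risk libraries (34.76 to 44.59 M against 26.43 to 33.49 M counts). They also had more detected genes (24676 to 28715 against 21663 to 22578). Their mitochondrial share was higher (4.2 to 5.85% against 2.94 to 3.08%). The 10-month vehicle and TBT tumor libraries lay below the uninvolved libraries in each of these as well. The part of these library differences was not tested. The largest difference was that of Ccnb1 (3.62 ± 0.83, adjusted p 0.00188 by edgeR).

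Ccnb1 had 0.0795, 0.128, 0.211, 0.234 and 0.243 CPM in the low-risk livers and 0.287 (liver 7), 0.455 (5), 1.02 (12), 1.71 (1) and 8.15 CPM (3+6) in the uninvolved livers. The groups did not overlap, but liver 3+6 stood far above the others. Mki67 had 2.5, 3.4, 4.75, 5.26 and 5.82 CPM and then 7.7 (liver 12), 8.08 (7), 12 (5), 27 (1) and 40.2 CPM (3+6), again without overlap (2.07 ± 0.47, adjusted p 0.00213). Cdc20 had 0.239, 0.545, 0.585, 0.624 and 0.739 CPM and then 0.703 (liver 7), 1.02 (5), 2.84 (12), 3.8 (1) and 15.5 CPM (3+6). Here liver 7 fell below the highest low-risk liver. Prc1 had 0.199, 0.39, 0.449, 0.493 and 1.11 CPM and then 1.28, 1.68, 2.56, 5.77 and 10.8 CPM, in the order of livers 7, 5, 12, 1 and 3+6.

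The same samples were high in other genes. Foxm1 had 0.625 (liver 7), 1.09 (5), 1.31 (12), 2.38 (1) and 6.56 CPM (3+6), against 0.16, 0.278, 0.387, 0.555 and 0.663 CPM in low-risk livers. Plk1 had 0.365, 0.432, 1.28, 1.79 and 7.81 CPM in that order of livers, against 0.141, 0.159, 0.195, 0.256 and 0.381 CPM. Cenpe had 1.2 (liver 7), 1.45 (12), 2.09 (5), 5.14 (1) and 6.06 CPM (3+6), against 0.358, 0.385, 0.458, 0.624 and 0.797 CPM. Liver 3+6 was highest and liver 1 next in each of these genes, and liver 7 was lowest.

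Some genes were not called higher. Spc25 was called lower (-0.79 ± 0.28, adjusted p 0.0253 by edgeR), with 2.9, 5.06, 5.98, 7.63 and 9.04 CPM in low-risk and 2.08, 2.67, 3.68, 4.61 and 5.18 CPM in uninvolved livers, which overlap. That call was lost without low-risk 4, low-risk 9, uninvolved 7 or uninvolved 12, where the values were -0.60 to -0.70. Smc4 had 17, 18.7, 19.3, 19.6 and 21.2 CPM and then 9.77 (liver 12), 15.2 (3+6), 19.3 (7), 20.7 (5) and 24.5 CPM (1), and was not called (-0.14 ± 0.17, adjusted p 0.508). Smc2 had 4.12, 4.77, 4.87, 4.87 and 5.72 CPM and then 3.04 (liver 12), 4.69 (7), 5.91 (5), 7.73 (3+6) and 8.24 CPM (1) (0.24, adjusted p 0.356). Also not called were Ccnf (0.26), Plk4 (0.50), Cenpa (0.44), Spc24 (-0.06), Kif11 (0.97, adjusted p 0.0516) and Kif20b (1.06). Top2a, with 1.39, 2.08, 2.79, 3.16 and 4.09 CPM and then 2.89 (liver 7), 4.36 (5), 6.71 (12), 13.5 (1) and 25.5 CPM (3+6), was called higher (1.91 ± 0.53).

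Among the related lists at 10 months, 15 of 19 other spindle and cytokinesis genes were higher in uninvolved than in low-risk liver, led by Ckap2 (3.57) and Ckap2l (3.42). Beside the 27.7% of all genes called higher and the 24.7% called lower, the counts of several other lists are near the background: 8 of 28 other kinetochore and checkpoint genes were higher, led by Kntc1 (2.29), with 3 lower, among them Cenpl (-0.51). Of 13 cohesin genes 3 were higher, led by separase, Espl1 (2.72), and 4 lower, led by Stag2 (-0.53). Ube2c (3.00) was 1 of 2 higher of 18 genes of the anaphase-promoting complex, with 3 lower, led by Anapc16 (-0.63). Of 4 other condensin genes, only Ncapd2 (0.81) was called, and it was higher. Of 19 DREAM, E2F and Rb genes 5 were higher, E2f1 and Mybl2 among them (0.99 each), and 5 lower, led by E2f8 (-1.44). Ccnd1 (2.04) was called higher and Cdk2 (-0.54) lower, and 6 of 9 CDK inhibitors and related genes were higher, led by Cdkn1a (3.59) and Cdkn3 (3.29).

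All 7 cholangiocyte markers were called higher in uninvolved liver, with summed levels of 45.5 to 66.9 CPM in low-risk and 120 to 236 CPM in uninvolved livers. Of 8 stellate markers 5 were higher and 1 lower (377 to 552 CPM and 603 to 826 CPM), 5 of 7 T and NK cell markers were higher, 1 of 8 hepatocyte markers was higher and 3 lower, and 2 of 8 macrophage markers were higher and 5 lower. Of 8 endothelial markers 2 were higher and 3 lower. Their part was not tested.

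Against the 10-month vehicles, uninvolved liver had 37 of 42 genes called higher and none lower, where 31.2% of all genes were called higher; the median was 2.0 beside 0.06 over all genes. Plk1 had the largest difference (3.57 ± 0.72, adjusted p 0.000491 by edgeR), with 0.0727 to 0.359 CPM (median 0.139) in vehicles, just under the 0.365 CPM of the lowest uninvolved liver. Plk1, Aurka, Kif15, Kif4, Prc1 and Ncapg did not overlap between these groups, which is 6 of 42 genes where 17.6% of all genes were higher without overlap. Not called were Ccnf (-0.05), Spc24 (-0.07), Spc25 (-0.50), Smc2 (0.12) and Smc4 (-0.06). When the tumor-labelled vehicle library was counted among the vehicles, 5 genes were called and the median was 0.88. Of the markers, all 7 cholangiocyte (45.7 to 62.7 CPM in vehicles, 120 to 236 CPM in uninvolved livers), 6 of 7 T and NK cell and 5 of 8 stellate markers (297 to 529 CPM and 603 to 826 CPM) were higher, with 1 stellate marker lower, and 4 of 8 hepatocyte markers were lower. Of 8 endothelial markers 4 were higher and 3 lower, and of 8 macrophage markers 2 were higher and 4 lower. The part of these cells was not tested.

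Low-risk livers of 10 months did not differ from vehicles by any call: 0 of 42 genes by edgeR and by DESeq2, 0 with an unadjusted p under 0.05, with 0% of all genes called and 688 at an unadjusted p under 0.05. The values ran from -0.94 for Ttk to 0.79 for Melk, a kinase of dividing cells, with a median of -0.06 beside 0.00 for all genes, and -1.01 when the tumor-labelled vehicle library was counted among the vehicles. For Mki67 the vehicles had 1.64 to 7.87 CPM (median 3.63), around the 2.5 to 5.82 CPM of the low-risk livers.

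Tumors had more mitotic RNA than the 10-month vehicles: 41 of 44 genes were called higher and none lower, where 24.8% of the 15293 genes tested were called higher, and the median was 3.21 beside -0.01 over all genes. Kif2c, a microtubule depolymerase at centromeres, had the largest difference (5.07 ± 0.65, adjusted p 4.45e-05 by edgeR), with 0.0384 to 0.2 CPM (median 0.0943) in vehicles and 0.342 to 5.91 CPM (median 4.3) in tumors. A count of 0 in the vehicle libraries allows 0.0968 to 0.115 CPM, so the size of this difference rests on vehicle values near that limit. Kif2c was too low to be tested in the 10-month fit without tumors. Kif2c and Birc5 did not overlap. Tumor 7 lay below the highest vehicle in the other 42 genes. Of all genes tested, 11.2% were above every vehicle in all tumors. Counting the tumor-labelled vehicle library among the vehicles gave a median of 2.1. Ccnb1 had 0.0792 to 0.639 CPM (median 0.135) in vehicles and 0.214 to 13.9 CPM (median 9.07) in tumors (5.03 ± 0.78). Not called were Ccnf (-0.16), Spc24 (0.09) and Spc25 (0.74, adjusted p 0.0516).

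Of all 15293 genes tested between tumors and vehicles, 3800 were called higher and 3216 lower. Called higher were all 22 other spindle and cytokinesis genes, led by Iqgap3 (4.63). Of 32 other kinetochore and checkpoint genes 21 were higher and 2 lower, and of 4 other condensin genes 3 were higher and 1 lower. Of 18 genes of the anaphase-promoting complex 6 were higher and 3 lower. Of 15 cohesin genes 6 were higher and 3 lower. Of 19 DREAM, E2F and Rb genes 5 were higher, among them Rbl1 (1.81), and 3 lower, among them E2f8 (-2.20). Ccnd1 (3.06), Cdkn3 (3.52) and Cdkn1a (2.93) were higher. Of 7 cholangiocyte markers 6 were higher (45.7 to 62.7 CPM in vehicles, 158 to 810 CPM in tumors), 5 of 8 hepatocyte markers were lower, 5 of 8 erythroid markers were lower and 5 of 7 T and NK cell markers were higher. Of 8 stellate markers 4 were higher and 1 lower, and of 8 endothelial markers 3 were higher and 4 lower. Of 8 macrophage markers 2 were higher and 2 lower. Their part was not tested.

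Between tumors and uninvolved liver, most mitosis genes did not pass the test. Spc25 (1.21 ± 0.33, adjusted p 0.025 by edgeR) and Smc2 (1.01 ± 0.30, adjusted p 0.034) were called higher in tumors, where 7.55% of the 16362 genes were. An unadjusted p under 0.05 was found for 16 of the 44 genes and for 34.9% of all genes, so this count is near the background. The median was 1.10 beside -0.01 over all genes, and 1.68 without uninvolved 3+6, and values ran from -0.14 for Ccnf to 2.26 ± 0.83 for Pbk (adjusted p 0.0727), a kinase of dividing cells. Between uninvolved and low-risk liver, a comparison that shares the uninvolved samples, Spc25 was called lower and Smc2 was not called. Smc2 had 4.19 to 16.2 CPM (median 13.8) in tumors, Spc25 2.18 to 11.6 CPM (median 9.35), and the lowest of both lay within the uninvolved range.

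The tumors and uninvolved livers share mouse numbers, so the same mice could be compared. The mitosis level of the tumor was above that of the uninvolved liver by 1.33 in mouse 1 (44 genes higher), by 1.56 in mouse 5 (43), by 2.17 in mouse 12 (42) and by 0.42 in mouse 3 (36). In mouse 7 it was -0.16 (16 genes higher) and in mouse 6 -0.64 (7 genes higher). For these differences uninvolved libraries 3 and 6 were kept apart, each with a level of 2.76. With the mouse as a block, 4 genes were called over 6 pairs with livers 3 and 6 kept apart, and 18 over 4 pairs without mice 3 and 6. Leaving out single samples gave between 0 calls (without uninvolved 5 or 7) and 22 (without uninvolved 3+6), and 18 without tumor 7, so the count rests on these samples.

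**Figure D5:**
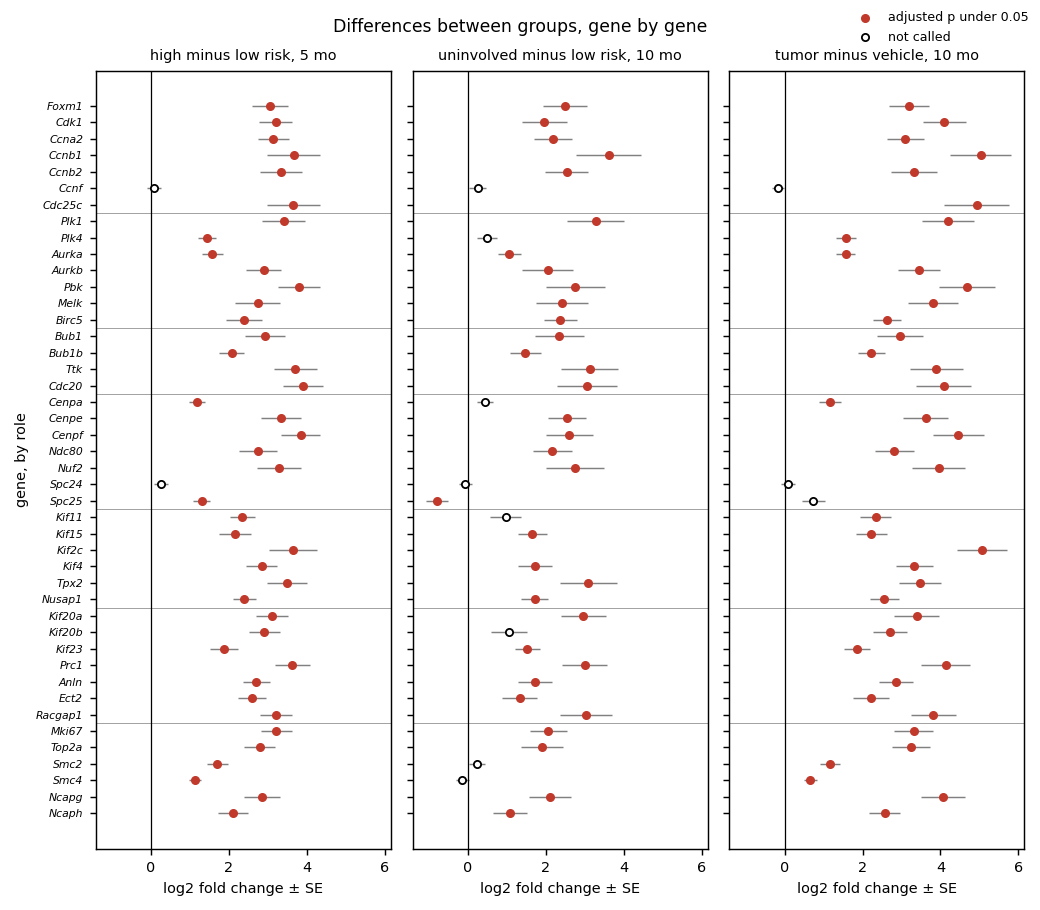
Log2 fold change of each mitosis gene (rows, by role) with its standard error (bars) in 3 comparisons: high-risk against low-risk at 5 months, uninvolved against low-risk liver at 10 months, and tumors against vehicles. Filled points were called (adjusted p under 0.05) and open points were not; Ccnf and Spc24 stay near 0 in all 3 panels, and Spc25 falls below 0 at -0.79 in the middle panel only.

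Whether the difference between risk labels changed from 5 to 10 months was tested as an interaction (uninvolved against low-risk at 10 months, minus high-risk against low-risk at 5 months). Called lower were 2 of the 44 genes, where 0.267% of the 16084 genes were, and 8 had an unadjusted p under 0.05, as had 1945 of all genes. The called genes were Spc25 (-2.08 ± 0.38, adjusted p 0.00864 by edgeR), whose difference was 1.30 at 5 months and -0.79 at 10 months, and Smc4 (-1.26 ± 0.27, adjusted p 0.0264), with 1.13 and -0.14. The median over the 44 genes was -0.72 beside 0.03 for all genes, -1.35 without uninvolved 3+6 and -0.46 with livers 3 and 6 as separate samples, and Ccnf had the highest value (0.19). For Mki67 the term was -1.14 (adjusted p 0.468) and for Ccnb1 -0.07 (adjusted p 0.994), which does not show equal differences at both ages. Tissue differs with age here as well, since the 10-month samples are uninvolved parts of livers with tumors, and these cannot be told apart. Within batch 1 alone 0 genes were called, as was the case without 10-month low-risk 4.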

How the data were processed

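RNA from livers was prepared with RNeasy and DNase and sequenced as 75 TruSeq stranded libraries of total RNA, per the labels' protocols. The submitters' processing notes name Trim Galore, HISAT2, featureCounts and mm10, with no versions. The authors deposited integer counts for 55536 genes, adjusted between batches with ComBat-seq per the file name and scaled neither by depth nor by length. The strand setting and the groups used in that adjustment are not given in the sources used here.

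Positions came from GENCODE M21 and promoters from RefSeq. Counts were tested over all genes with edgeR 4.0.16 in R 4.3.3 (TMM, filterByExpr, robust quasi-likelihood, Benjamini-Hochberg adjustment at 0.05). Standard errors were derived from the F statistic. Each age was fitted jointly (batch as covariate at 5 months), tumors with only the group compared, and ages over batch 1 vehicles. Alternatives were DESeq2 1.42.0, other scaling, no filter, batch subsets, replicate blocks and left-out samples. Statistics were tested on simulated data. CPM of the mitosis genes and markers are counts per 1000000 of a library size scaled by TMM over all samples. CPM of Xist, of the Y-linked genes and of the limits for a count of 0 use the unscaled library total. Limits for a count of 0 cover counting error only, whereas the standard errors also hold the spread between mice.

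The 44 genes and the gene lists were chosen with earlier results of these data known. Named are 21 genes given by sample, in each comparison those with the largest and smallest log2 fold change and, where 10 or fewer, those not called or tested, and up to 4 genes per related list; promoters are of described genes with both kinds of letters upstream. The summing of uninvolved livers 3 and 6 was chosen after their values were seen. Tumors and uninvolved livers with 1 number come from the same mouse per the titles; their deviations from the group means correlated over 16362 genes at -0.02, 0.05, -0.09, -0.20, 0.63 and 0.09.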

Additional observations from a re-analysis of the deposited data

Results flagged for a closer look

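Within groups of 4 to 10 samples, the highest or lowest sample was compared with the group's range by Dixon's criterion for the mitosis level and the 21 genes described by sample. Of 176 groups tested 32 were marked (18.2%), where chance marks about 5%, 1 in 20; the genes move together, so these are few independent events. High-risk 1 stood below its group in the mitosis level (0.94), and tumor 7 below the other tumors in the mitosis level (0.05), Top2a (3.46 CPM) and Aurkb (0.47 CPM).

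The 5-month vehicle 4 stood above the other vehicles in 14 genes: Mki67 (36.7 CPM), Foxm1 (3.72), Cdk1 (11.9), Ccna2 (8.84), Ccnb1 (14.3), Plk1 (6.71), Aurkb (3.24), Bub1b (5.26), Cdc20 (16.2), Cenpe (9.51), Kif11 (8.5), Tpx2 (10.5), Prc1 (10.6) and Racgap1 (8.5). The library labelled TBT 4 at 3 weeks stood above its group in Mki67 (238 CPM), Top2a (128), Foxm1 (24.4), Aurkb (21.8), Ndc80 (8.55), Cenpe (28.1) and Prc1 (37.8). Uninvolved 3+6 stood out in Ccnb1 (8.15 CPM), Plk1 (7.81), Cdc20 (15.5) and Racgap1 (12.3), 10-month vehicle 1 in Cdc20 (1.8 CPM) and Anln (1.8), and 3-week vehicle 7 in Racgap1 (18.9 CPM).

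The risk difference changed between 5 and 10 months by the interaction test for Spc25 (-2.08, log2) and Smc4 (-1.26). The vehicle library labelled as a tumor, which no comparison used, had a mitosis level of 2.55, above that of all 6 vehicles of its age.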

How the results depend on the processing

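Counts of genes called are given by setting; those not listed stayed within 1.5 times of the main count. For high-risk against low-risk mice, 21 were called in batch 1 only (508 over all genes), and 42 to 42 with each sample left out. High-risk against vehicle had 16 without the filter, 0 in batch 1 only (0 over all genes), 18 with only these groups fitted, and 18 (without vehicle 8) to 39 (without vehicle 9). For uninvolved against low-risk liver, with samples left out, the higher calls ran from 30 to 36 and the lower from 0 to 1. Uninvolved against vehicle had 5 with the vehicle tumor as a vehicle, and 33 to 38 with samples left out. Tumor against uninvolved had 11 by DESeq2, 14 with all 10-month groups in the fit, 4 with uninvolved 3 and 6 as separate samples, 0 (without uninvolved 5 or 7) to 22 (without uninvolved 3+6), 18 without tumor 7, and 1 without uninvolved 12 or tumor 1, 3, 11 or 12. With samples left out, tumor against vehicle had 36 to 42, and from 3 weeks to 5 months 41 to 43 were lower and 0 to 1 higher (1 without 5-month vehicle 9). From 5 to 10 months there were 0 higher and 0 lower without the filter, 25 lower by DESeq2, 0 (without 5-month vehicle 4) to 23 (without 5-month vehicle 2) lower, and 0 to 1 higher. The interaction had 0 in batch 1 only, and 0 (without 10-month low-risk 4) to 3 (without 5-month low-risk 5). The causes were not tested.

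With the mouse as a replicate block, tumor against uninvolved liver gave 4 calls over 6 pairs and 18 over 4 pairs. Numbers in other titles name different mice: as a replicate block they gave a median of -0.03 for low-risk against vehicle at 5 months, 0 calls for high-risk against vehicle (median 0.11) and reversed there Plk1 (-0.20), Aurkb (-0.12), Ndc80 (-0.79), Cenpe (-0.38), Kif11 (-0.27) and Anln (-0.10), 31 for uninvolved and 33 for tumor against vehicle, and otherwise stayed within 1.5 times.

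Values near 0 changed sign. For high-risk against low-risk, Ccnf was -0.18 and Spc24 -0.05 in batch 1 only, and with samples left out Ccnf ran from -0.01 to 0.16. For uninvolved against low-risk, Smc4 ran from -0.26 to 0.02 and Spc24 from -0.13 to 0.02 with samples left out. Against vehicle, with the vehicle tumor as a vehicle, Smc2 was -0.07 and Spc24 0.02, and with uninvolved 3 and 6 separate Ccnf was 0.02; with samples left out, Smc2 ran from -0.01 to 0.29, Smc4 from -0.18 to 0.10, Ccnf from -0.18 to 0.05 and Spc24 from -0.15 to 0.05. Spc24 ran from 0 to 0.21 for tumor against vehicle, and from 5 to 10 months Smc2 ran from -0.39 to 0.06 and Smc4 from -0.13 to 0.09. Leaving out the 6 libraries that stand apart kept every count within 1.5 times. Depth limits genes near 0 counts, chiefly in libraries of few counts.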
